A study of Homo sapiens with 17 samples.

Results

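Interferon-stimulated effector genes encode the proteins by which a cell that has sensed interferon limits viral replication. The 49 genes described here were chosen by symbol, from the IFIT, OAS, MX, IFITM, ISG15, PARP, TRIM and related families, with a list drawn up when earlier results of these data were known, and all 49 were found among the 23230 genes of the count tables. Their RNA was counted by RNA-seq in LNCaP, an established human prostate cancer cell line that depends on androgen, and in LNCaP-abl, a subline that the labels call androgen independent. LNCaP-abl was kept in 10% serum stripped of steroids with charcoal, and LNCaP in 10% serum that was not stripped. Each line was transfected with siCREB1, siFoxA1 or siControl, an siRNA at 40 nM, and kept for 3 days in stripped serum at 5%. CREB1 is a factor that answers cyclic AMP, and FOXA1, the target of siFoxA1, is a pioneer factor, able to open closed chromatin. LNCaP-abl was used at passages 62 to 64 and LNCaP at passages 32 to 34, so that line, growth medium and passage cannot be told apart. The siControl cells were transfected too. An effect of an siRNA apart from the loss of its target was not tested. Each of the 6 groups had 2 libraries. The labels do not say that they came from separate cultures, so p-values measure the spread between these libraries, which may be technical.

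Type I and type III interferons bind their receptors and activate the kinases JAK1 and TYK2. Their signal forms the complex ISGF3, which holds STAT2 and IRF9 and binds the interferon-stimulated response element (ISRE) in the promoters of interferon-stimulated genes. Type II interferon acts mainly through another element, the gamma-activated site (GAS). ISREs are also bound by IRF3 and IRF7, which are activated downstream of sensors of foreign RNA such as RIG-I (DDX58) and MDA5 (IFIH1).

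Promoters of 6 members are shown because they span the range of what the members did: IFIT1, ISG15, IFI6 and BST2 were called higher in LNCaP after both knockdowns, EPSTI1 was called in no comparison although it has an ISRE core match, and SAMHD1 has no match and changed little. Each sequence is the 200 bases before the transcription start from RefSeq (GRCh38.p14), written 5′ to 3′ on the strand of the gene. Capitals mark matches to the ISRE core, 2 copies of GAAA with 2 bases of any kind between them, on either strand (TTTC on the other strand).
IFIT1 (chr10:89392423-89392622, forward strand): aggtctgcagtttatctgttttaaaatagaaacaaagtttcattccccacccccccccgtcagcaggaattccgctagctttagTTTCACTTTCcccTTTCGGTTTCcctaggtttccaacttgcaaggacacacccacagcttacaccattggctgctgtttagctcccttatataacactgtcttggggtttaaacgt
ISG15 (chr1:1013297-1013496, forward strand): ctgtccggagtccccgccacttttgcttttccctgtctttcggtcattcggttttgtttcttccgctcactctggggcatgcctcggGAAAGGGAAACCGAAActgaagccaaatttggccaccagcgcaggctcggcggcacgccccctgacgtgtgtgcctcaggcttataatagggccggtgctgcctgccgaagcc
IFI6 (chr1:27672193-27672392, reverse strand): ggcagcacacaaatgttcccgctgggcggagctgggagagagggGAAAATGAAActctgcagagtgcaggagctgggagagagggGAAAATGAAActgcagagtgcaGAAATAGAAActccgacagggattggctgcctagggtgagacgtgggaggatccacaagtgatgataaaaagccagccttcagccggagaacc
BST2 (chr19:17405631-17405830, reverse strand): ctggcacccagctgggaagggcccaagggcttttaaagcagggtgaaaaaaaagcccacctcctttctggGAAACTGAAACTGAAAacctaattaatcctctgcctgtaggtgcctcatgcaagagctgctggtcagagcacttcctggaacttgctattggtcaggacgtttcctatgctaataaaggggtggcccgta
EPSTI1 (chr13:42992242-42992441, reverse strand): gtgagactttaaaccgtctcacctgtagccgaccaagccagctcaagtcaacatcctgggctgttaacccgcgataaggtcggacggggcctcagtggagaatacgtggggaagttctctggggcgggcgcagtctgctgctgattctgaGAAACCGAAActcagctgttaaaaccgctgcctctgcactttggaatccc
SAMHD1 (chr20:36951709-36951908, reverse strand): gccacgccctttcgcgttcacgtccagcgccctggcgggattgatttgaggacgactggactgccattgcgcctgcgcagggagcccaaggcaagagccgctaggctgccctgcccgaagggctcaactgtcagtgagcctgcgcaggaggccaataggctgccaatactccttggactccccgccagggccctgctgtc
The IFIT1, ISG15 and BST2 promoters each held 2 matches, that of IFI6 held 3 and that of EPSTI1 held 1. The matches of BST2 and of ISG15 overlap each other, and in IFI6 the same 10 bases, GAAAATGAAA, stand in 2 places.

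RefSeq promoters (250 bases before to 50 bases after the start) were at hand for 40 of the 49 members and for 27305 genes in all. The ISRE core was found on either strand in at least 1 window of 29 of the 40 members (72.5%), and of 4.38% of all genes. It occurred at least 2 times in a window of 16 members, and HERC5, IFI6 and IFIT5 had 3 matches. The GAS motif TTCNNNGAA was found in 11 of 40 members (27.5%) and in 9.38% of all genes; it shared bases with an ISRE core match in 5 members, namely IFI27, IFITM1, MX1, BST2 and EPSTI1. The palindromic cyclic-AMP response element TGACGTCA, the full site known for CREB1, was found in 0 of 40 members and 2.25% of all genes. Forkhead motifs, searched as TGTTTAC and TGTTTGC on both strands, were found in 5 of 40 members (12.5%) and 8.68% of all genes. A match is a description of letters in the window, not of binding, and no match says only that these letters are not in this window.

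Reads in genes ranged from 9092597 to 37314039 per library, both extremes being siControl libraries of LNCaP-abl. CREB1 was at 46.3 and 43.9 CPM under siCREB1 in LNCaP-abl, against 78.8 and 79.7 CPM under siControl, and 56.9% of its mean level remained. In LNCaP it was at 38.7 and 29.8 CPM against 81.0 and 85.3 CPM, with 41.2% remaining. FOXA1 was at 196 and 229 CPM under siFoxA1 in LNCaP-abl, against 556 and 504 CPM under siControl (40.0% remaining), and at 215 and 211 CPM against 799 and 695 CPM in LNCaP (28.5% remaining). CREB1 also fell under siFoxA1, with log2 changes of -0.44 ± 0.09 in LNCaP-abl and -0.44 ± 0.09 in LNCaP. All 9 prostate luminal markers were detected in every library, although KLK3, which encodes prostate-specific antigen, had 1 to 23 counts in LNCaP-abl libraries. The first siControl library of each line stood apart, with neutrophil transcripts: CSF3R had 87 counts in LNCaP-abl and 76 in LNCaP, and S100A8 had 20 counts in each, whereas each had 0 to 2 counts in every other library. The sum of 8 neutrophil markers was 0.811 and 0.932 CPM under siCREB1 and 5.93 and 4.10 CPM under siFoxA1 in LNCaP-abl, against 6.72 and 1.45 CPM under siControl; in LNCaP it was 0.626 and 0.657 CPM under siCREB1 and 3.54 and 4.17 CPM under siFoxA1, against 6.36 and 1.09 CPM. Of these markers ELANE was at 0 in every library, 2 to 6 of the 8 were at 0 in each, and the siFoxA1 level was nearly all S100A9 and CXCR2. The sum of 4 endothelial markers in LNCaP was 3.37 and 2.79 CPM under siFoxA1, against 31.5 and 28.8 CPM under siControl, mostly VWF. The sum of 5 fibroblast markers, mostly COL1A1, was 17.9 and 22.1 CPM under siFoxA1 in LNCaP-abl, against 11.1 and 12.4 CPM under siControl. In LNCaP it was 98.1 and 83.3 CPM against 56.2 and 64.6 CPM, and COL1A2 was at 0 in every library. Of these markers COL1A1 alone rose in LNCaP. There PDGFRB had 7 and 11 counts under siFoxA1 against 20 and 15 under siControl, and DCN 0 and 0 against 2 and 5. COL3A1 had 38 and 43 counts against 54 and 26 in LNCaP, and 80 and 101 against 73 and 13 in LNCaP-abl, at unequal library sizes. The sum of 6 markers of other leukocytes, mostly CD68, was 30.7 and 23.9 CPM under siFoxA1 in LNCaP-abl, against 20.1 and 19.6 CPM under siControl. In LNCaP it was 15.3 and 15.3 CPM against 12.3 and 12.2 CPM. LYZ and PTPRC did not rise with CD68. LYZ had 52 and 58 counts against 144 and 28 in LNCaP-abl, and 57 and 60 against 106 and 43 in LNCaP. PTPRC had 15 and 6 counts against 64 and 8 in LNCaP-abl, and 0 and 0 against 9 and 0 in LNCaP. Scaled to library size, LYZ was lower under siFoxA1 in both lines and PTPRC in LNCaP-abl. The part of any of these in the members' levels was not tested, apart from the counts without the first siControl libraries. In such bulk RNA, more cells with a transcript and more transcript per cell cannot be told apart.

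The members were highest in LNCaP after siFoxA1. Levels are given as CPM, the count scaled to library size after TMM normalisation, and are compared between libraries and not between genes. Summed over the 49 members, the level was 1343 and 1284 CPM under siCREB1 and 2705 and 2066 CPM under siFoxA1 in LNCaP-abl, against 1292 and 1229.9 CPM under siControl. In LNCaP the sum was 1531 and 1425 CPM under siCREB1 and 4240.5 and 4243 CPM under siFoxA1, against 869 and 802 CPM under siControl. The mean sum was thus 1.04 times the siControl mean under siCREB1 and 1.89 times under siFoxA1 in LNCaP-abl, and 1.77 times and 5.08 times in LNCaP for the same knockdowns. Such a sum gives more weight to abundant members such as TRIM25, so these ratios are not the change of a typical member. The siCREB1 sums of LNCaP-abl were close to the siControl sums, with the lower siCREB1 library below the higher siControl library, whereas the other knockdown groups lay wholly above siControl.

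**Figure D1:**
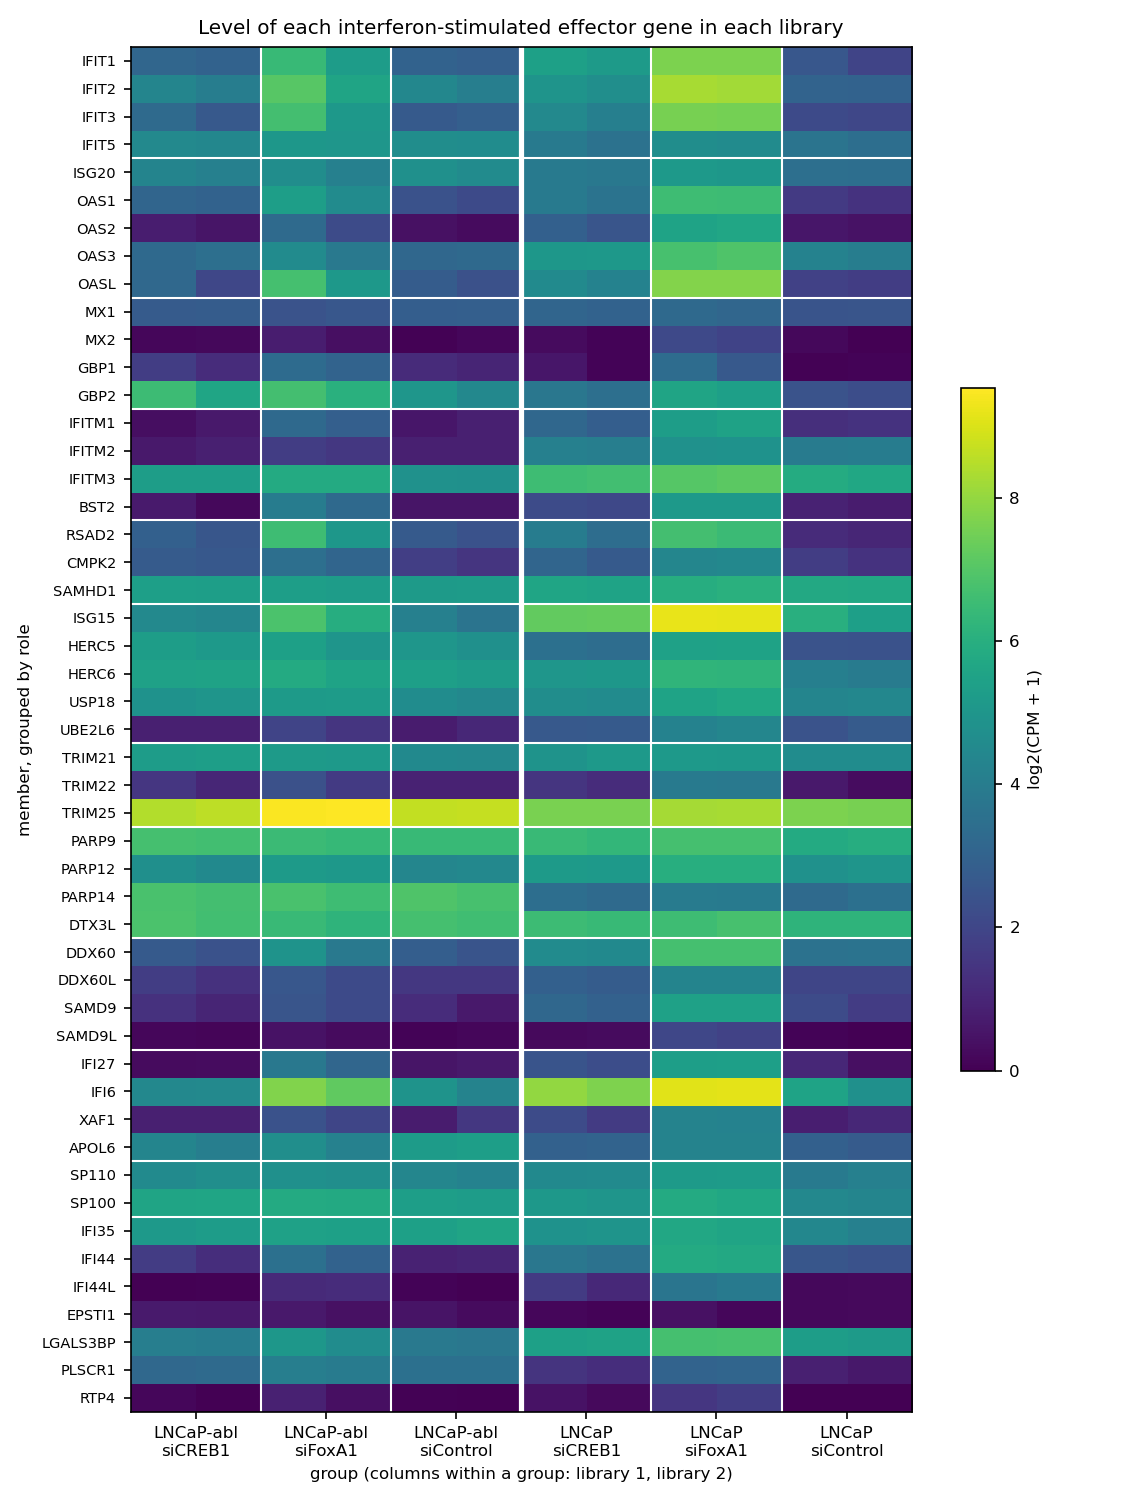
Level of the 49 members (rows, grouped by role) in the 12 libraries (columns), as log2(CPM + 1); colours are to be compared along a row, since CPM does not correct for gene length. Most rows are brightest in the LNCaP siFoxA1 libraries, whose members summed to 4240.5 and 4243 CPM.

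Members were called where edgeR's quasi-likelihood test gave an adjusted p (Benjamini-Hochberg, over all 15550 genes tested) below 0.05, and all 49 were among the genes tested. Under siFoxA1 in LNCaP, 48 of 49 members were called higher and 0 lower, with a median log2 change of 3.31; of all tested genes, 49.8% were called, 24.4% higher and 25.5% lower, and their median was -0.01. Of the 48, 40 rose at least 2-fold and 26 by at least 3 on the log2 scale, and EPSTI1 was the member not called. The share of all tested genes past these fold thresholds was not counted. Under siCREB1 in LNCaP, 37 members were called higher and 0 lower, with a median of 1.08, beside 37.6% of all genes called, 17.8% higher and 19.8% lower. Under siFoxA1 in LNCaP-abl, 39 members were called higher and 3 lower (MX1, DTX3L and APOL6), with a median of 1.58, beside 56.5% of all genes called, 29.9% higher and 26.5% lower. Under siCREB1 in LNCaP-abl, 12 members were called higher and 4 lower, with a median of 0.16, beside 51.2% of all genes called, 27.5% higher and 23.7% lower, so that the share of members called higher was close to that of all genes. Among the 100 genes with the largest fitted log2 change of each comparison, 17 were members under siFoxA1 and 14 under siCREB1 in LNCaP, 9 under siFoxA1 in LNCaP-abl, and 0 under siCREB1 in LNCaP-abl. Both knockdowns of a line share its siControl libraries, so these comparisons are not independent.

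The counts of 12 higher and 4 lower under siCREB1 in LNCaP-abl changed when single libraries were left out. The share of all tested genes called fell in each of these fits too. Without the first siCREB1 library 7 were higher and 2 lower, and likewise without the second siControl library; without the first siControl library 2 were lower. The median was 0.02 without the first siCREB1 library and 0.28 without the second. OAS1, IFI44, HERC5, PARP9, SP110, SAMHD1, IFI35, ISG20 and TRIM25 each lost their call there under at least 1 alternative setting. Under siCREB1 in LNCaP, GBP2, TRIM22, RTP4 and PARP12 were among those that lost their call under at least 1 setting. Under siFoxA1 in LNCaP-abl, 34 members were higher and 1 lower without the first siControl library, and MX1, MX2, SAMD9L, UBE2L6, DTX3L and RTP4 were among those that lost their call under at least 1 setting. For siFoxA1 in LNCaP, the count was 48 higher and 0 lower whichever library was left out.

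**Figure D2:**
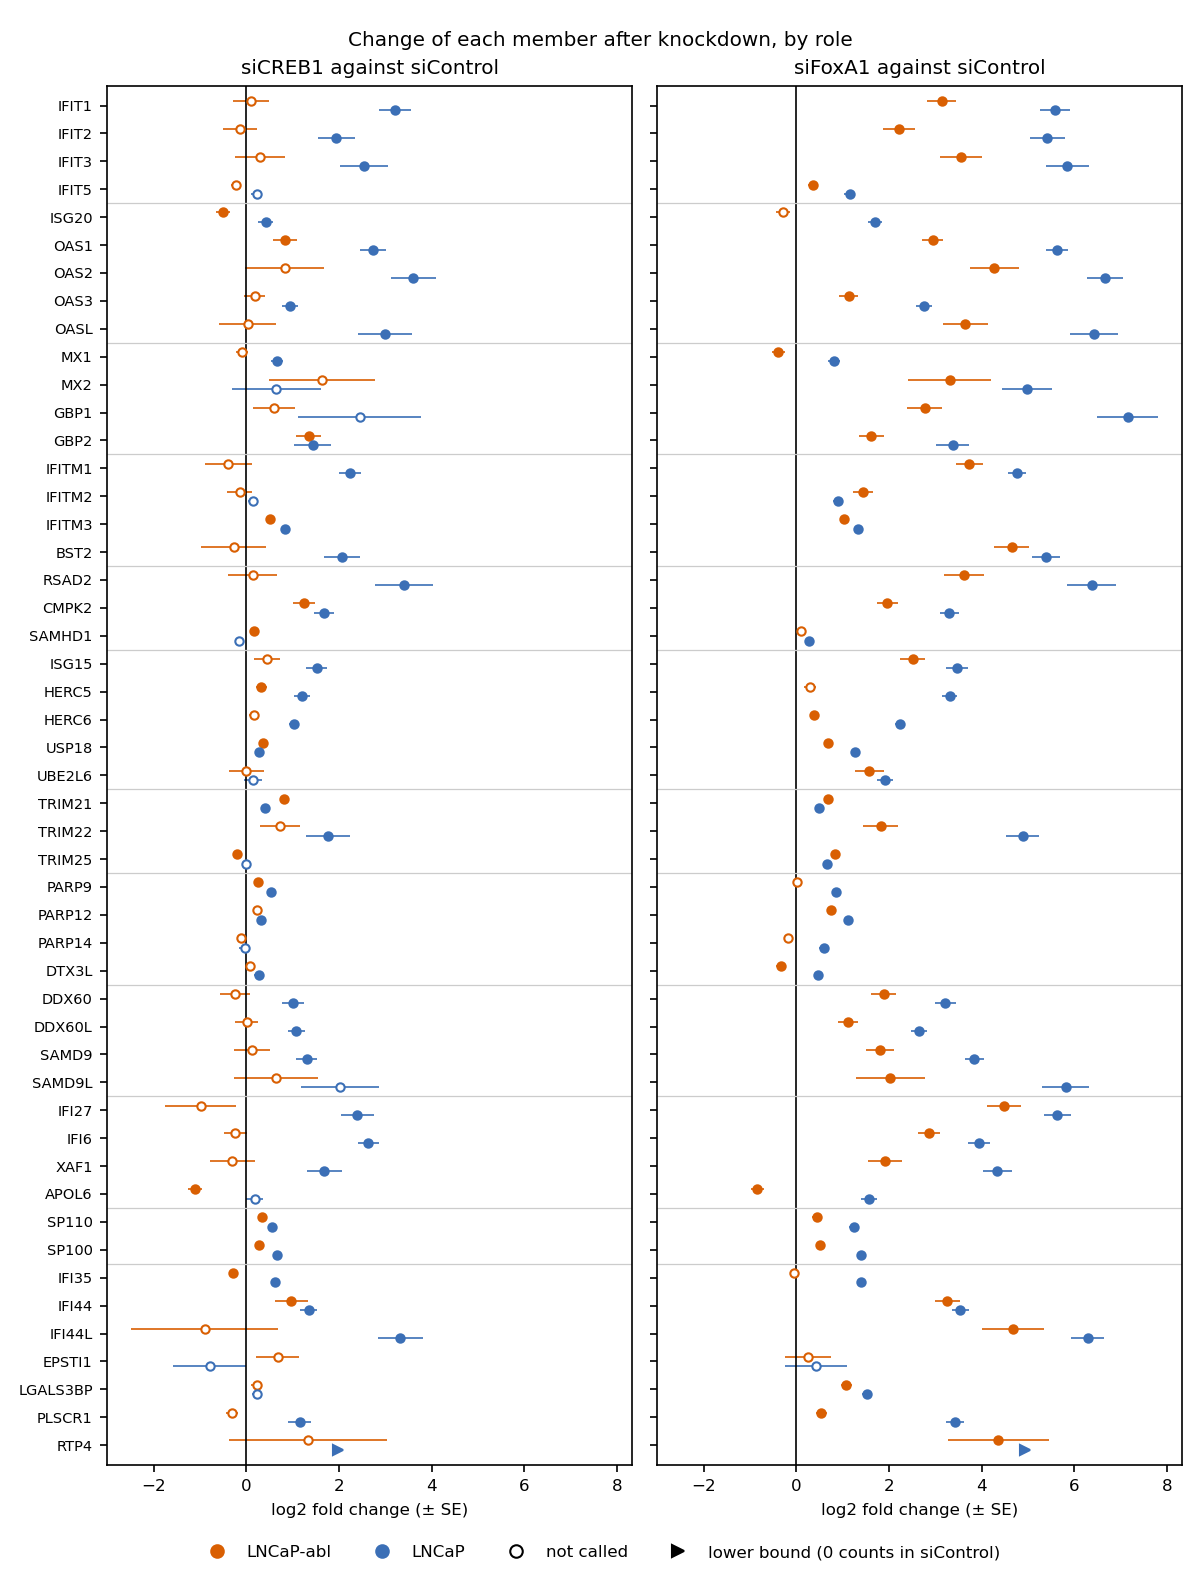
Log2 fold change ± SE of each member (rows, grouped by role) for siCREB1 (left panel) and siFoxA1 (right panel) against siControl in LNCaP-abl (orange) and LNCaP (blue); filled points were called and open points were not, and triangles are lower bounds where siControl had 0 counts. Of the 49 members, 39 were called higher in LNCaP-abl and 48 in LNCaP in the right panel, and 12 and 37 in the left panel.

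The IFIT proteins bind viral RNA: IFIT1 holds RNA whose cap lacks the host's methyl marks, IFIT3 is its partner, and IFIT5 binds RNA with a triphosphate end. All 4 rose under siFoxA1 in both lines, and 3 of 4 rose under siCREB1 in LNCaP, with IFIT5 not called; in LNCaP-abl siCREB1 gave 0 calls among them. IFIT1 had 7.84 and 6.97 CPM under siCREB1 and 83.9 and 37.6 CPM under siFoxA1 in LNCaP-abl, against 7.08 and 6.35 CPM under siControl. IFIT1 in LNCaP stood at 42.3 and 35.3 CPM under siCREB1 and 200.1 and 201 CPM under siFoxA1, against 5.02 and 2.88 CPM under siControl. IFIT1 libraries of the knockdown groups lay wholly above siControl except for siCREB1 in LNCaP-abl, which overlapped with siControl. Its log2 change under siFoxA1 was 3.14 ± 0.32 (adjusted p = 1.52e-06) in LNCaP-abl and 5.58 ± 0.33 (adjusted p = 1.58e-08) in LNCaP, and under siCREB1 0.10 ± 0.38 (adjusted p = 0.85) and 3.21 ± 0.34 (adjusted p = 1.04e-05) in the same lines. IFIT3 had 8.88 and 5.31 CPM under siCREB1 and 102 and 32.6 CPM under siFoxA1 in LNCaP-abl, against 5.50 and 6.35 CPM under siControl. IFIT3 in LNCaP stood at 21.5 and 16.1 CPM under siCREB1 and 191 and 183 CPM under siFoxA1, against 3.36 and 3.08 CPM under siControl. The first siFoxA1 library of LNCaP-abl was 3.13 times the second for IFIT3, while in LNCaP both siFoxA1 libraries were close to each other and far above the rest. IFIT3 rose by 3.55 ± 0.45 and 5.85 ± 0.47 under siFoxA1 in LNCaP-abl and LNCaP, and by 2.53 ± 0.51 under siCREB1 in LNCaP. IFIT5 had 21.6 and 20.3 CPM under siCREB1 and 31.7 and 31.1 CPM under siFoxA1 in LNCaP-abl, against 24.6 and 24.2 CPM under siControl. IFIT5 in LNCaP stood at 14.1 and 11.2 CPM under siCREB1 and 24.7 and 23.5 CPM under siFoxA1, against 11.6 and 9.87 CPM under siControl. IFIT5 lay wholly above siControl under siFoxA1 in both lines, lay wholly below it under siCREB1 in LNCaP-abl and overlapped with it under siCREB1 in LNCaP, with log2 changes of -0.23 ± 0.11 (not called) and 0.22 ± 0.12 (not called) under siCREB1 and of 0.36 ± 0.10 and 1.15 ± 0.11 under siFoxA1 in LNCaP-abl and LNCaP. IFIT5 thus had the smallest rises of the 4. The span of LIPA in RefSeq overlaps all 4 IFIT genes, and the library kit did not mark strand, so reads in shared bases could not be told apart.

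The oligoadenylate synthetases OAS1, OAS2 and OAS3 make a short oligoadenylate signal that activates RNase L, OASL is a relative without that activity that acts on RIG-I signalling, and ISG20 is an exonuclease. All 5 rose under both knockdowns in LNCaP, and 4 of 5 under siFoxA1 in LNCaP-abl, where ISG20 was not called. OASL had 8.25 and 3.08 CPM under siCREB1 and 104 and 33.0 CPM under siFoxA1 in LNCaP-abl, against 5.92 and 4.12 CPM under siControl. OASL in LNCaP stood at 22.6 and 17.6 CPM under siCREB1 and 216 and 217 CPM under siFoxA1, against 2.64 and 2.31 CPM under siControl. OASL showed the widest gap between siFoxA1 libraries of LNCaP-abl, and even the lower of them was above every siControl library. OASL rose by 3.64 ± 0.48 (adjusted p = 2.02e-05) in LNCaP-abl and 6.43 ± 0.52 (adjusted p = 3.48e-07) in LNCaP under siFoxA1. OAS2 had 0.676 and 0.446 CPM under siCREB1 and 8.78 and 3.50 CPM under siFoxA1 in LNCaP-abl, against 0.333 and 0.223 CPM under siControl. OAS2 in LNCaP stood at 6.63 and 4.67 CPM under siCREB1 and 44.9 and 49.6 CPM under siFoxA1, against 0.506 and 0.384 CPM under siControl. OAS2 was below 1 CPM under siControl in both lines, and every LNCaP knockdown library was above it. OAS2 rose by 4.27 ± 0.53 and 6.66 ± 0.38 under siFoxA1 in LNCaP-abl and LNCaP, and by 3.60 ± 0.48 under siCREB1 in LNCaP. OAS1 had 7.57 and 7.05 CPM under siCREB1 and 39.5 and 23.4 CPM under siFoxA1 in LNCaP-abl, against 4.31 and 3.45 CPM under siControl. OAS1 in LNCaP stood at 13.8 and 11.3 CPM under siCREB1 and 94.6 and 92.5 CPM under siFoxA1, against 2.06 and 1.60 CPM under siControl. OAS1 was above siControl in every knockdown library of both lines, with log2 changes of 0.84 ± 0.26 and 2.73 ± 0.28 under siCREB1 and of 2.94 ± 0.23 and 5.63 ± 0.24 under siFoxA1 in LNCaP-abl and LNCaP. OAS1 was the synthetase called under siCREB1 in LNCaP-abl (adjusted p = 0.016), and this call was lost when the first siCREB1 library or either siControl library was left out. ISG20 had 18.9 and 16.9 CPM under siCREB1 and 24.7 and 16.8 CPM under siFoxA1 in LNCaP-abl, against 26.8 and 23.0 CPM under siControl. ISG20 in LNCaP stood at 13.8 and 13.2 CPM under siCREB1 and 33.6 and 32.1 CPM under siFoxA1, against 10.3 and 9.93 CPM under siControl. ISG20 lay wholly above siControl under siFoxA1 in LNCaP and siCREB1 in LNCaP, lay wholly below it under siCREB1 in LNCaP-abl and overlapped with it under siFoxA1 in LNCaP-abl, with log2 changes of -0.50 ± 0.14 and 0.42 ± 0.16 under siCREB1 and of -0.29 ± 0.14 (not called) and 1.70 ± 0.15 under siFoxA1 in LNCaP-abl and LNCaP. ISG20 thus fell under siCREB1 in LNCaP-abl and rose under siCREB1 in LNCaP. OAS3 rose by 1.14 ± 0.21 and 2.76 ± 0.17 under siFoxA1 in LNCaP-abl and LNCaP.

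Of the GTPases, MX1 and MX2 are dynamin-like proteins that trap viral capsids, and GBP1 and GBP2 are guanylate-binding proteins that coat pathogens and their vacuoles. All 4 rose under siFoxA1 in LNCaP, but in LNCaP-abl 3 rose and MX1 fell; under siCREB1, GBP2 rose in both lines and MX1 in LNCaP. MX1 had 5.72 and 5.87 CPM under siCREB1 and 4.46 and 5.01 CPM under siFoxA1 in LNCaP-abl, against 6.14 and 6.35 CPM under siControl. MX1 in LNCaP stood at 7.59 and 7.005 CPM under siCREB1 and 8.47 and 7.80 CPM under siFoxA1, against 4.55 and 4.68 CPM under siControl. MX1, a gene widely used as a readout of interferon, moved little in either line, and its siFoxA1 libraries were the lowest of LNCaP-abl and the highest of LNCaP. The changes of MX1 under siFoxA1 were -0.39 ± 0.14 (adjusted p = 0.0257) in LNCaP-abl and 0.82 ± 0.13 (adjusted p = 1.42e-04) in LNCaP, and the fall in LNCaP-abl was not called with DESeq2, with only the compared groups in the fit, or without the first siFoxA1 library or either siControl library. GBP2 had 91.1 and 47.97 CPM under siCREB1 and 103 and 65.0 CPM under siFoxA1 in LNCaP-abl, against 31.2 and 20.7 CPM under siControl. GBP2 in LNCaP stood at 12.6 and 10.1 CPM under siCREB1 and 46.7 and 40.5 CPM under siFoxA1, against 4.48 and 3.78 CPM under siControl. GBP2 was above siControl in every knockdown library of its line, and it rose by 1.35 ± 0.27 and 1.43 ± 0.39 under siCREB1, and by 1.62 ± 0.27 and 3.37 ± 0.35 with siFoxA1, in LNCaP-abl and LNCaP. GBP1 had 52 and 32 counts under siCREB1 and 196 and 169 counts under siFoxA1 in LNCaP-abl, against 45 and 9 counts under siControl. GBP1 in LNCaP stood at 13 and 2 counts under siCREB1 and 220 and 141 counts under siFoxA1, against 1 and 1 counts under siControl. GBP1 was above siControl in every knockdown library of both lines when scaled to CPM. The ratio for GBP1 under siFoxA1 in LNCaP was 157-fold (95% counting interval 43.1 to 1299), an interval that covers counting error only, and its log2 change in LNCaP-abl was 2.77 ± 0.37 (adjusted p = 2.15e-05). MX2 had 3 and 4 counts under siCREB1 and 15 and 7 counts under siFoxA1 in LNCaP-abl, against 1 and 1 counts under siControl. MX2 in LNCaP stood at 6 and 2 counts under siCREB1 and 79 and 73 counts under siFoxA1, against 4 and 0 counts under siControl. MX2 lay wholly above siControl under siFoxA1 in both lines and siCREB1 in LNCaP-abl and overlapped with it under siCREB1 in LNCaP when scaled to CPM. MX2 under siFoxA1 in LNCaP-abl had a ratio of 11.0-fold (95% counting interval 2.71 to 96.6), and in LNCaP it rose by 4.98 ± 0.54.

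The IFITM proteins block fusion of virus and cell membranes, and BST2 (tetherin) holds budding virions at the cell surface. All 4 rose under siFoxA1 in both lines; under siCREB1, 3 of 4 rose in LNCaP and IFITM3 in LNCaP-abl. BST2 had 0.631 and 0.162 CPM under siCREB1 and 15.2 and 8.55 CPM under siFoxA1 in LNCaP-abl, against 0.472 and 0.446 CPM under siControl. BST2 in LNCaP stood at 3.57 and 3.17 CPM under siCREB1 and 33.6 and 33.9 CPM under siFoxA1, against 0.903 and 0.641 CPM under siControl. BST2 was below 1 CPM in all siControl libraries and in those of siCREB1 in LNCaP-abl, and the other knockdown libraries were all above 3 CPM. BST2 rose by 5.38 ± 0.30 (adjusted p = 1.13e-08) under siFoxA1 and 2.06 ± 0.39 (adjusted p = 0.0011) under siCREB1 in LNCaP. IFITM1 had 0.270 and 0.567 CPM under siCREB1 and 8.59 and 6.48 CPM under siFoxA1 in LNCaP-abl, against 0.5001 and 0.780 CPM under siControl. IFITM1 in LNCaP stood at 8.21 and 6.27 CPM under siCREB1 and 39.0 and 44.4 CPM under siFoxA1, against 1.44 and 1.67 CPM under siControl. IFITM1 was also lowest under siControl in LNCaP and overlapped between siCREB1 and siControl in LNCaP-abl, with changes of 3.74 ± 0.29 and 4.76 ± 0.20 under siFoxA1 in LNCaP-abl and LNCaP and of 2.24 ± 0.23 under siCREB1 in LNCaP. IFITM3 had 38.5 and 38.2 CPM under siCREB1 and 55.2 and 55.8 CPM under siFoxA1 in LNCaP-abl, against 27.2 and 26.7 CPM under siControl. IFITM3 in LNCaP stood at 93.2 and 100.3 CPM under siCREB1 and 131 and 140.3 CPM under siFoxA1, against 57.3 and 50.2 CPM under siControl. IFITM3 was above siControl in every knockdown library of both lines, with log2 changes of 0.50 ± 0.08 and 0.84 ± 0.07 under siCREB1 and of 1.04 ± 0.08 and 1.33 ± 0.07 under siFoxA1 in LNCaP-abl and LNCaP. IFITM3 was thus called in all 4 comparisons, with smaller changes than IFITM1 and BST2 under siFoxA1. IFITM2 had 0.586 and 0.810 CPM under siCREB1 and 2.34 and 1.90 CPM under siFoxA1 in LNCaP-abl, against 0.778 and 0.780 CPM under siControl. IFITM2 in LNCaP stood at 16.6 and 15.9 CPM under siCREB1 and 27.6 and 27.7 CPM under siFoxA1, against 14.7 and 15.0 CPM under siControl. IFITM2 lay wholly above siControl under siFoxA1 in both lines and siCREB1 in LNCaP and overlapped with it under siCREB1 in LNCaP-abl, with log2 changes of -0.14 ± 0.28 (not called) and 0.13 ± 0.10 (not called) under siCREB1 and of 1.44 ± 0.22 and 0.90 ± 0.10 under siFoxA1 in LNCaP-abl and LNCaP. IFITM2 was much lower in LNCaP-abl than in LNCaP in all groups. The IFITM genes are close copies of each other, so the split of reads among them is uncertain.

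RSAD2 (viperin) converts CTP into a chain terminator of viral RNA synthesis, CMPK2 is a nucleotide kinase, and SAMHD1 breaks down deoxynucleotides. RSAD2 had 6.58 and 4.82 CPM under siCREB1 and 95.3 and 32.0 CPM under siFoxA1 in LNCaP-abl, against 5.50 and 4.23 CPM under siControl. RSAD2 in LNCaP stood at 14.9 and 9.59 CPM under siCREB1 and 102 and 90.4 CPM under siFoxA1, against 1.23 and 1.03 CPM under siControl. RSAD2 in the second siFoxA1 library of LNCaP-abl was well below the first, and both were above all siControl libraries. RSAD2 rose by 3.62 ± 0.43 (adjusted p = 7.73e-06) and 6.38 ± 0.53 (adjusted p = 4.18e-07) under siFoxA1 in LNCaP-abl and LNCaP and by 3.40 ± 0.63 (adjusted p = 8.45e-04) under siCREB1 in LNCaP, and its change under siCREB1 in LNCaP-abl was 0.13 ± 0.53 (adjusted p = 0.86). CMPK2 had 5.63 and 5.10 CPM under siCREB1 and 10.1 and 7.60 CPM under siFoxA1 in LNCaP-abl, against 2.42 and 1.78 CPM under siControl. CMPK2 in LNCaP stood at 7.66 and 5.55 CPM under siCREB1 and 19.9 and 21.0 CPM under siFoxA1, against 2.31 and 1.67 CPM under siControl. CMPK2 was above siControl in every knockdown library of both lines, with log2 changes of 1.25 ± 0.23 and 1.68 ± 0.22 under siCREB1 and of 1.97 ± 0.22 and 3.31 ± 0.20 under siFoxA1 in LNCaP-abl and LNCaP. CMPK2 was thus called higher in all 4 comparisons; it overlaps RSAD2 in RefSeq, so reads in shared bases are uncertain. SAMHD1 had 40.6 and 39.9 CPM under siCREB1 and 39.7 and 37.4 CPM under siFoxA1 in LNCaP-abl, against 35.2 and 36.2 CPM under siControl. SAMHD1 in LNCaP stood at 47.7 and 45.6 CPM under siCREB1 and 61.0 and 65.0 CPM under siFoxA1, against 52.4 and 52.2 CPM under siControl. All 12 SAMHD1 values lay between 35.2 and 65.0 CPM, its span overlaps TLDC2 in RefSeq, and its largest called change against siControl was 0.27 ± 0.06 (adjusted p = 0.00355) under siFoxA1 in LNCaP.

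ISG15 is a ubiquitin-like protein that UBE2L6 and HERC5 attach to newly made proteins, HERC6 is a relative of HERC5, and USP18 removes ISG15 and also damps the interferon receptor. All 5 rose under siFoxA1 in LNCaP and 4 of 5 in LNCaP-abl, where HERC5 was not called; under siCREB1, 4 of 5 rose in LNCaP and HERC5 and USP18 rose in LNCaP-abl. ISG15 had 21.3 and 20.01 CPM under siCREB1 and 112 and 60.01 CPM under siFoxA1 in LNCaP-abl, against 16.8 and 11.6 CPM under siControl. ISG15 in LNCaP stood at 151 and 153 CPM under siCREB1 and 594 and 579 CPM under siFoxA1, against 63.8 and 41.0 CPM under siControl. ISG15 was above siControl in every knockdown library of both lines, and the siControl libraries of LNCaP were themselves above those of LNCaP-abl. ISG15 rose by 2.51 ± 0.27 (adjusted p = 2.39e-06) and 3.46 ± 0.24 (adjusted p = 7.58e-08) under siFoxA1 in LNCaP-abl and LNCaP, and by 1.52 ± 0.23 (adjusted p = 1.96e-04) under siCREB1 in LNCaP; its change under siCREB1 in LNCaP-abl was 0.45 ± 0.28 (adjusted p = 0.209) and was not called. HERC5 had 39.0 and 34.8 CPM under siCREB1 and 41.9 and 30.3 CPM under siFoxA1 in LNCaP-abl, against 31.0 and 26.9 CPM under siControl. HERC5 in LNCaP stood at 10.4 and 9.70 CPM under siCREB1 and 42.7 and 44.2 CPM under siFoxA1, against 4.44 and 4.29 CPM under siControl. HERC5 in LNCaP-abl siControl lay above both siControl and siCREB1 in LNCaP, and its change under siFoxA1 was 0.30 ± 0.13 (adjusted p = 0.062) in LNCaP-abl and 3.31 ± 0.16 (adjusted p = 2.26e-09) in LNCaP. USP18 had 28.0 and 30.3 CPM under siCREB1 and 36.0 and 36.8 CPM under siFoxA1 in LNCaP-abl, against 24.0 and 20.7 CPM under siControl. USP18 in LNCaP stood at 24.3 and 23.3 CPM under siCREB1 and 45.4 and 49.9 CPM under siFoxA1, against 19.3 and 20.2 CPM under siControl. USP18 was above siControl in every knockdown library of both lines, with log2 changes of 0.36 ± 0.09 and 0.27 ± 0.09 under siCREB1 and of 0.68 ± 0.09 and 1.27 ± 0.09 under siFoxA1 in LNCaP-abl and LNCaP. USP18 was thus called in all 4 comparisons. UBE2L6 had 0.766 and 0.770 CPM under siCREB1 and 2.85 and 1.77 CPM under siFoxA1 in LNCaP-abl, against 0.667 and 1.11 CPM under siControl. UBE2L6 in LNCaP stood at 5.38 and 5.58 CPM under siCREB1 and 17.5 and 19.9 CPM under siFoxA1, against 4.44 and 5.64 CPM under siControl. UBE2L6 lay wholly above siControl under siFoxA1 in both lines and overlapped with it under siCREB1 in both lines, with log2 changes of 0.00 ± 0.37 (not called) and 0.15 ± 0.19 (not called) under siCREB1 and of 1.58 ± 0.31 and 1.92 ± 0.17 under siFoxA1 in LNCaP-abl and LNCaP. UBE2L6 was lower in LNCaP-abl than in LNCaP in every group. HERC6 rose by 0.39 ± 0.09 and 2.23 ± 0.10 under siFoxA1 in LNCaP-abl and LNCaP.

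**Figure D3:**
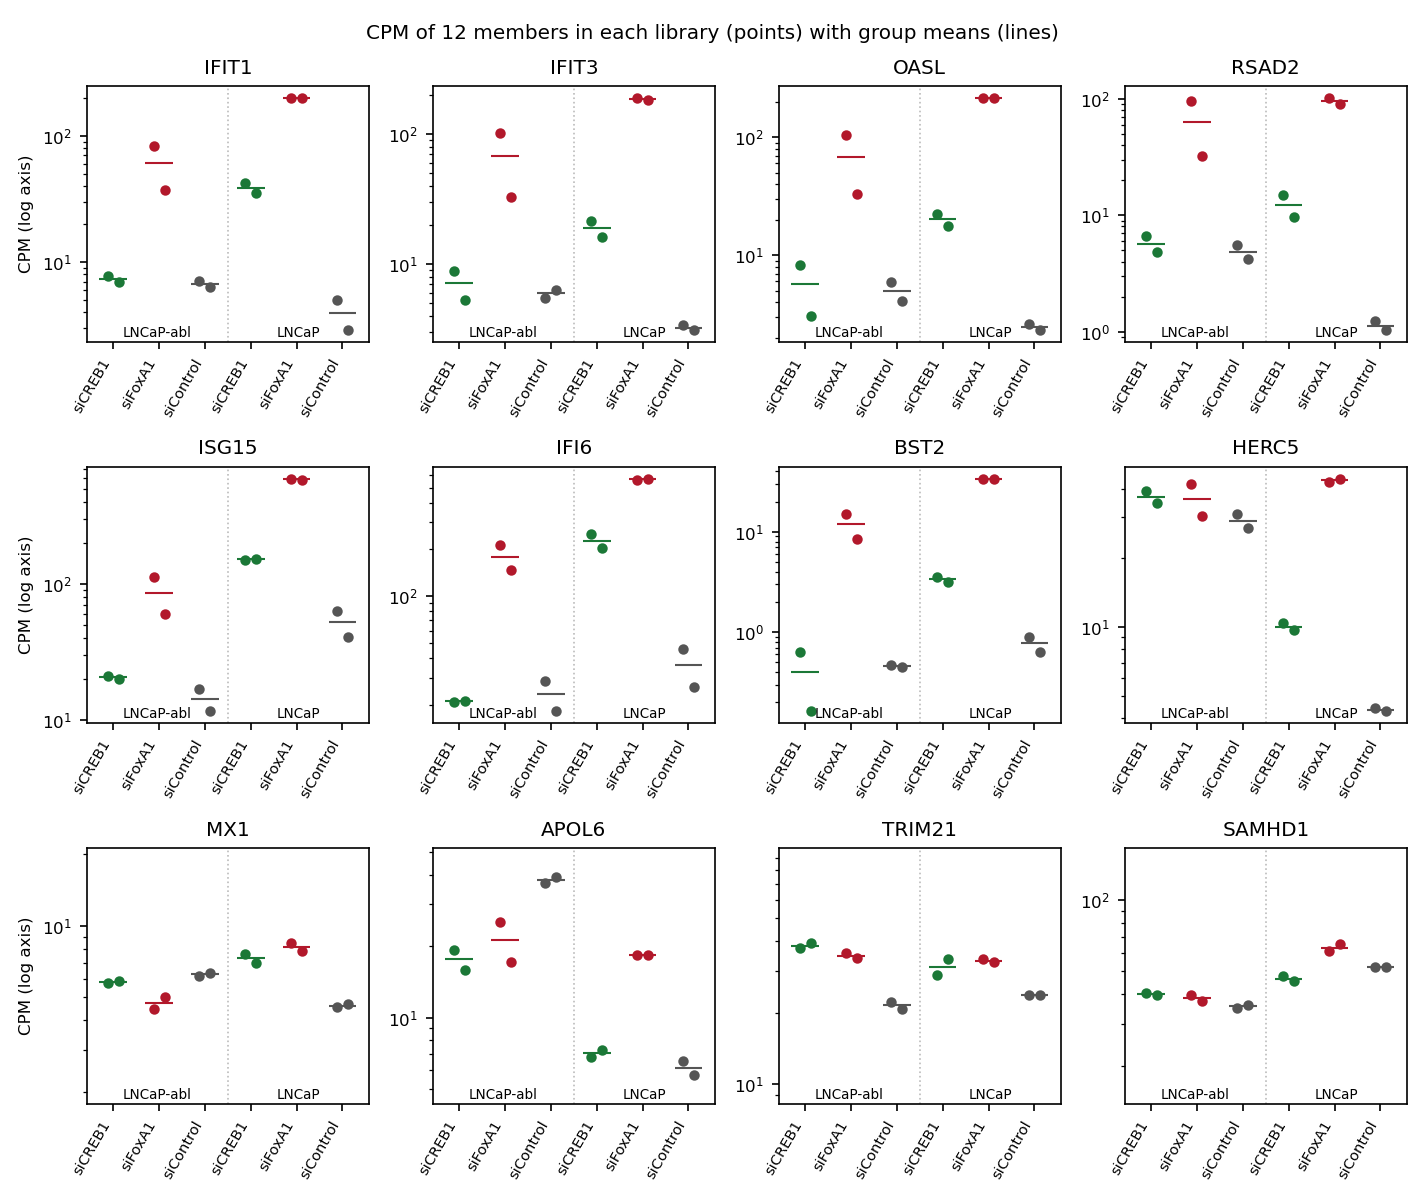
CPM (log axis) of 12 members in each library (points) with the group mean (lines), for siCREB1 (green), siFoxA1 (red) and siControl (grey) in LNCaP-abl (left of the dotted line) and LNCaP (right). The 2 siFoxA1 points of LNCaP-abl lie far apart for IFIT3, OASL and RSAD2, at 102 and 32.6 CPM for IFIT3, and close together in LNCaP.

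The TRIM proteins are ubiquitin ligases: TRIM21 binds antibody-coated virus in the cytosol, TRIM25 acts on RIG-I, and TRIM22 restricts viral transcription. All 3 rose under siFoxA1 in both lines, while under siCREB1 TRIM21 rose in both lines, TRIM22 rose in LNCaP and TRIM25 fell in LNCaP-abl. TRIM22 had 1.85 and 1.05 CPM under siCREB1 and 4.14 and 2.07 CPM under siFoxA1 in LNCaP-abl, against 0.861 and 0.892 CPM under siControl. TRIM22 in LNCaP stood at 1.804 and 1.31 CPM under siCREB1 and 13.9 and 13.4 CPM under siFoxA1, against 0.578 and 0.256 CPM under siControl. TRIM22 was highest in both siFoxA1 libraries of LNCaP, and rose by 1.82 ± 0.38 in LNCaP-abl and 4.88 ± 0.35 in LNCaP. TRIM25 had 342 and 380.3 CPM under siCREB1 and 721 and 742 CPM under siFoxA1 in LNCaP-abl, against 408 and 416 CPM under siControl. TRIM25 in LNCaP stood at 197 and 195 CPM under siCREB1 and 305 and 316 CPM under siFoxA1, against 200.2 and 191 CPM under siControl. TRIM25 separated siFoxA1 from the other groups of each line, with changes of 0.83 ± 0.06 (adjusted p = 9.01e-08) in LNCaP-abl and 0.66 ± 0.06 (adjusted p = 1.4e-06) in LNCaP. TRIM21 had 37.4 and 39.2 CPM under siCREB1 and 35.7 and 34.0 CPM under siFoxA1 in LNCaP-abl, against 22.1 and 20.8 CPM under siControl. TRIM21 in LNCaP stood at 28.9 and 33.7 CPM under siCREB1 and 33.6 and 32.9 CPM under siFoxA1, against 23.7 and 23.9 CPM under siControl. TRIM21 libraries of both knockdowns lay above siControl in both lines, with changes of 0.82 ± 0.09 and 0.40 ± 0.08 under siCREB1, and 0.69 ± 0.09 and 0.48 ± 0.08 with siFoxA1, in LNCaP-abl and LNCaP.

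PARP9 acts with the ubiquitin ligase DTX3L, and PARP12 and PARP14 attach single ADP-ribose units to proteins. These genes changed little: all 4 rose under siFoxA1 in LNCaP with a median log2 change of 0.73, while in LNCaP-abl PARP12 rose, DTX3L fell, and PARP9 and PARP14 were not called. DTX3L had 114 and 98.5 CPM under siCREB1 and 86.6 and 73.1 CPM under siFoxA1 in LNCaP-abl, against 105 and 95.7 CPM under siControl. DTX3L in LNCaP stood at 91.1 and 84.2 CPM under siCREB1 and 95.3 and 106 CPM under siFoxA1, against 72.8 and 72.6 CPM under siControl. DTX3L was lowest in the siFoxA1 libraries of LNCaP-abl but lowest in the siControl libraries of LNCaP, with changes of -0.34 ± 0.09 (adjusted p = 0.0075) and 0.47 ± 0.09 (adjusted p = 9.16e-04) under siFoxA1 in LNCaP-abl and LNCaP. PARP12 had 25.6 and 21.8 CPM under siCREB1 and 35.5 and 32.9 CPM under siFoxA1 in LNCaP-abl, against 19.8 and 20.8 CPM under siControl. PARP12 in LNCaP stood at 36.1 and 35.1 CPM under siCREB1 and 61.5 and 62.6 CPM under siFoxA1, against 27.3 and 30.2 CPM under siControl. PARP12 was highest under siFoxA1 in both lines and rose by 0.76 ± 0.09 and 1.11 ± 0.08 in LNCaP-abl and LNCaP. PARP9 had 104 and 98.1 CPM under siCREB1 and 89.5 and 82.9 CPM under siFoxA1 in LNCaP-abl, against 85.2 and 85.4 CPM under siControl. PARP9 in LNCaP stood at 88.3 and 79.4 CPM under siCREB1 and 104 and 105 CPM under siFoxA1, against 55.7 and 60.1 CPM under siControl. PARP9 lay wholly above siControl under siFoxA1 in LNCaP and siCREB1 in both lines and overlapped with it under siFoxA1 in LNCaP-abl, with log2 changes of 0.25 ± 0.07 and 0.54 ± 0.07 under siCREB1 and of 0.02 ± 0.07 (not called) and 0.86 ± 0.07 under siFoxA1 in LNCaP-abl and LNCaP. PARP9 was thus called under both knockdowns in LNCaP and under siCREB1 in LNCaP-abl. PARP14 had 111 and 103 CPM under siCREB1 and 110.0 and 94.5 CPM under siFoxA1 in LNCaP-abl, against 121 and 108 CPM under siControl. PARP14 in LNCaP stood at 9.76 and 8.87 CPM under siCREB1 and 14.6 and 14.3 CPM under siFoxA1, against 8.88 and 10.4 CPM under siControl. PARP14 lay wholly above siControl under siFoxA1 in LNCaP and overlapped with it under siFoxA1 in LNCaP-abl and siCREB1 in both lines, with log2 changes of -0.11 ± 0.09 (not called) and -0.03 ± 0.12 (not called) under siCREB1 and of -0.17 ± 0.09 (not called) and 0.60 ± 0.12 under siFoxA1 in LNCaP-abl and LNCaP. PARP14 in LNCaP-abl was above every LNCaP library. PARP9 and DTX3L overlap each other in RefSeq, so their reads are uncertain where they share bases.

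DDX60 and DDX60L are helicase-like proteins linked to viral RNA sensing, and SAMD9 and SAMD9L restrict poxviruses and cell growth. All 4 rose under siFoxA1 in both lines, and 3 rose under siCREB1 in LNCaP; siCREB1 in LNCaP-abl gave 0 calls. DDX60 had 5.45 and 4.25 CPM under siCREB1 and 28.8 and 13.7 CPM under siFoxA1 in LNCaP-abl, against 6.17 and 4.57 CPM under siControl. DDX60 in LNCaP stood at 23.5 and 21.8 CPM under siCREB1 and 105 and 105 CPM under siFoxA1, against 11.2 and 11.5 CPM under siControl. DDX60 was above siControl in all LNCaP knockdown libraries, and rose by 1.88 ± 0.28 and 3.22 ± 0.23 under siFoxA1 in LNCaP-abl and LNCaP. SAMD9 had 1.58 and 0.972 CPM under siCREB1 and 4.73 and 3.41 CPM under siFoxA1 in LNCaP-abl, against 1.33 and 0.557 CPM under siControl. SAMD9 in LNCaP stood at 8.14 and 6.79 CPM under siCREB1 and 43.4 and 43.3 CPM under siFoxA1, against 3.54 and 2.24 CPM under siControl. SAMD9 rose by 1.81 ± 0.31 (adjusted p = 1.84e-04) in LNCaP-abl and 3.84 ± 0.20 (adjusted p = 6.22e-09) in LNCaP under siFoxA1, its LNCaP siFoxA1 libraries being far above all others. SAMD9L had 3 and 2 counts under siCREB1 and 8 and 5 counts under siFoxA1 in LNCaP-abl, against 2 and 1 counts under siControl. SAMD9L in LNCaP stood at 5 and 6 counts under siCREB1 and 74 and 69 counts under siFoxA1, against 2 and 0 counts under siControl. SAMD9L lay wholly above siControl under siFoxA1 in both lines and siCREB1 in LNCaP and overlapped with it under siCREB1 in LNCaP-abl when scaled to CPM. The SAMD9L ratio under siFoxA1 was 4.34-fold (95% counting interval 1.19 to 23.7) in LNCaP-abl and 62.1-fold (95% counting interval 16.9 to 518) in LNCaP. DDX60L had 2.30 and 1.58 CPM under siCREB1 and 4.96 and 3.37 CPM under siFoxA1 in LNCaP-abl, against 1.92 and 1.89 CPM under siControl. DDX60L in LNCaP stood at 6.59 and 5.91 CPM under siCREB1 and 18.6 and 18.5 CPM under siFoxA1, against 2.96 and 2.95 CPM under siControl. DDX60L lay wholly above siControl under siFoxA1 in both lines and siCREB1 in LNCaP and overlapped with it under siCREB1 in LNCaP-abl, with log2 changes of 0.01 ± 0.25 (not called) and 1.08 ± 0.19 under siCREB1 and of 1.12 ± 0.22 and 2.65 ± 0.17 under siFoxA1 in LNCaP-abl and LNCaP. DDX60L is a neighbour of DDX60 in the genome.

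IFI27 is a small mitochondrial protein, IFI6 acts at the endoplasmic reticulum against flaviviruses, and XAF1 and APOL6 promote cell death. All 4 rose under siFoxA1 in LNCaP and 3 of 4 under siCREB1 in LNCaP, whereas APOL6 fell in LNCaP-abl under both knockdowns. IFI6 had 20.8 and 21.3 CPM under siCREB1 and 213 and 147 CPM under siFoxA1 in LNCaP-abl, against 28.6 and 18.2 CPM under siControl. IFI6 in LNCaP stood at 250.1 and 203 CPM under siCREB1 and 558 and 570.3 CPM under siFoxA1, against 45.6 and 26.3 CPM under siControl. IFI6 separated knockdown from siControl in all but the siCREB1 libraries of LNCaP-abl, with changes of 2.86 ± 0.24 (adjusted p = 2.38e-07) and 3.94 ± 0.23 (adjusted p = 1.83e-08) under siFoxA1 in LNCaP-abl and LNCaP and 2.63 ± 0.23 (adjusted p = 1.96e-06) under siCREB1 in LNCaP. APOL6 had 19.3 and 15.9 CPM under siCREB1 and 25.3 and 17.2 CPM under siFoxA1 in LNCaP-abl, against 36.9 and 39.2 CPM under siControl. APOL6 in LNCaP stood at 6.81 and 7.30 CPM under siCREB1 and 18.3 and 18.4 CPM under siFoxA1, against 6.57 and 5.70 CPM under siControl. The siControl libraries of LNCaP-abl had the most APOL6, and its changes there were -1.11 ± 0.15 (adjusted p = 2.75e-05) under siCREB1 and -0.84 ± 0.14 (adjusted p = 2.13e-04) under siFoxA1; in LNCaP they were 0.18 ± 0.19 (not called) and 1.56 ± 0.17. IFI27 had 0.225 and 0.243 CPM under siCREB1 and 13.3 and 7.95 CPM under siFoxA1 in LNCaP-abl, against 0.444 and 0.557 CPM under siControl. IFI27 in LNCaP stood at 4.64 and 3.83 CPM under siCREB1 and 39.4 and 40.3 CPM under siFoxA1, against 1.08 and 0.320 CPM under siControl. IFI27 lay wholly above siControl under siFoxA1 in both lines and siCREB1 in LNCaP and lay wholly below it under siCREB1 in LNCaP-abl, with log2 changes of -0.98 ± 0.76 (not called) and 2.40 ± 0.36 under siCREB1 and of 4.48 ± 0.36 and 5.63 ± 0.29 under siFoxA1 in LNCaP-abl and LNCaP. IFI27 was lowest under siCREB1 in LNCaP-abl. XAF1 had 0.766 and 0.770 CPM under siCREB1 and 4.27 and 2.94 CPM under siFoxA1 in LNCaP-abl, against 0.667 and 1.89 CPM under siControl. XAF1 in LNCaP stood at 3.53 and 2.15 CPM under siCREB1 and 18.0 and 18.0 CPM under siFoxA1, against 0.758 and 1.09 CPM under siControl. XAF1 lay wholly above siControl under siFoxA1 in both lines and siCREB1 in LNCaP and overlapped with it under siCREB1 in LNCaP-abl, with log2 changes of -0.30 ± 0.49 (not called) and 1.68 ± 0.38 under siCREB1 and of 1.92 ± 0.37 and 4.34 ± 0.31 under siFoxA1 in LNCaP-abl and LNCaP. XAF1 was thus higher in LNCaP than in LNCaP-abl under siFoxA1.

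SP100 and SP110 are proteins of PML nuclear bodies, and both rose in all 4 comparisons. SP100 had 46.3 and 47.6 CPM under siCREB1 and 55.8 and 54.8 CPM under siFoxA1 in LNCaP-abl, against 39.3 and 37.9 CPM under siControl. SP100 in LNCaP stood at 33.3 and 30.5 CPM under siCREB1 and 56.3 and 49.98 CPM under siFoxA1, against 20.9 and 19.4 CPM under siControl. SP100 was above siControl in every knockdown library of both lines, with log2 changes of 0.28 ± 0.08 and 0.66 ± 0.08 under siCREB1 and of 0.51 ± 0.08 and 1.39 ± 0.08 under siFoxA1 in LNCaP-abl and LNCaP. SP110 had 22.8 and 25.2 CPM under siCREB1 and 26.7 and 25.0 CPM under siFoxA1 in LNCaP-abl, against 19.7 and 17.6 CPM under siControl. SP110 in LNCaP stood at 22.1 and 22.7 CPM under siCREB1 and 35.4 and 36.3 CPM under siFoxA1, against 14.1 and 16.6 CPM under siControl. SP110 was above siControl in every knockdown library of both lines, with log2 changes of 0.35 ± 0.10 and 0.56 ± 0.10 under siCREB1 and of 0.45 ± 0.10 and 1.24 ± 0.10 under siFoxA1 in LNCaP-abl and LNCaP. SP110 overlaps SP140 in RefSeq. Of the 7 remaining members, 6 rose under siFoxA1 in LNCaP, 5 under siFoxA1 in LNCaP-abl and 5 under siCREB1 in LNCaP. IFI44 had 2.25 and 1.38 CPM under siCREB1 and 10.6 and 6.999 CPM under siFoxA1 in LNCaP-abl, against 0.889 and 1.00 CPM under siControl. IFI44 in LNCaP stood at 12.7 and 11.0 CPM under siCREB1 and 56.0 and 52.7 CPM under siFoxA1, against 4.88 and 4.36 CPM under siControl. IFI44 was above siControl in every knockdown library of its line and was called in all 4 comparisons, with changes of 0.97 ± 0.36 and 1.34 ± 0.19 under siCREB1, and 3.26 ± 0.27 and 3.54 ± 0.18 with siFoxA1, in LNCaP-abl and LNCaP. IFI44L had 0 and 1 counts under siCREB1 and 26 and 31 counts under siFoxA1 in LNCaP-abl, against 2 and 0 counts under siControl. IFI44L in LNCaP stood at 59 and 32 counts under siCREB1 and 289 and 362 counts under siFoxA1, against 4 and 3 counts under siControl. IFI44L lay wholly above siControl under siFoxA1 in both lines and siCREB1 in LNCaP and overlapped with it under siCREB1 in LNCaP-abl when scaled to CPM. IFI44L, the neighbour of IFI44, had a ratio of 28.5-fold (95% counting interval 7.55 to 241) under siFoxA1 in LNCaP-abl, and its log2 changes in LNCaP were 3.32 ± 0.48 under siCREB1 and 6.28 ± 0.35 under siFoxA1. RTP4 had 3 and 0 counts under siCREB1 and 18 and 7 counts under siFoxA1 in LNCaP-abl, against 1 and 0 counts under siControl. RTP4 in LNCaP stood at 10 and 5 counts under siCREB1 and 44 and 61 counts under siFoxA1, against 0 and 0 counts under siControl. RTP4 lay wholly above siControl under siFoxA1 in both lines and siCREB1 in LNCaP and overlapped with it under siCREB1 in LNCaP-abl when scaled to CPM. RTP4, a chaperone of membrane receptors, was at least 3.97-fold higher under siCREB1 and at least 30.4-fold higher under siFoxA1 in LNCaP, against a floor of 3 counts over the siControl group, and the ratio under siFoxA1 in LNCaP-abl was 25.0-fold (95% counting interval 4.10 to 1028). PLSCR1 had 8.25 and 8.75 CPM under siCREB1 and 15.8 and 14.7 CPM under siFoxA1 in LNCaP-abl, against 10.53 and 10.48 CPM under siControl. PLSCR1 in LNCaP stood at 1.69 and 1.39 CPM under siCREB1 and 7.21 and 7.65 CPM under siFoxA1, against 0.794 and 0.513 CPM under siControl. PLSCR1 lay wholly above siControl under siFoxA1 in both lines and siCREB1 in LNCaP and lay wholly below it under siCREB1 in LNCaP-abl, with log2 changes of -0.31 ± 0.13 (not called) and 1.15 ± 0.25 under siCREB1 and of 0.54 ± 0.12 and 3.42 ± 0.20 under siFoxA1 in LNCaP-abl and LNCaP. PLSCR1 encodes a phospholipid scramblase, and its LNCaP-abl levels were above those of LNCaP under siControl, siCREB1 and siFoxA1. LGALS3BP, a secreted glycoprotein, rose by 1.08 ± 0.12 and 1.52 ± 0.10 under siFoxA1 in LNCaP-abl and LNCaP. IFI35 had 35.2 and 37.5 CPM under siCREB1 and 43.2 and 42.0 CPM under siFoxA1 in LNCaP-abl, against 42.2 and 46.9 CPM under siControl. IFI35 in LNCaP stood at 28.2 and 29.7 CPM under siCREB1 and 52.0 and 46.9 CPM under siFoxA1, against 20.1 and 17.0 CPM under siControl. IFI35 lay wholly above siControl under siFoxA1 in LNCaP and siCREB1 in LNCaP, lay wholly below it under siCREB1 in LNCaP-abl and overlapped with it under siFoxA1 in LNCaP-abl, with log2 changes of -0.28 ± 0.09 and 0.63 ± 0.09 under siCREB1 and of -0.05 ± 0.09 (not called) and 1.4 ± 0.09 under siFoxA1 in LNCaP-abl and LNCaP. IFI35 thus fell under siCREB1 in LNCaP-abl and rose under both knockdowns in LNCaP. EPSTI1 was low throughout, from 0.0730 to 0.631 CPM, and had changes of 0.67 ± 0.46 and -0.79 ± 0.79 under siCREB1, and 0.26 ± 0.49 and 0.44 ± 0.67 with siFoxA1, in LNCaP-abl and LNCaP, none of them called.

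The knockdown effects on many members differed between the lines. The difference between the siFoxA1 effect in LNCaP-abl and that in LNCaP, tested in the same edgeR fit, was called negative for 33 of 49 members and positive for 0, with a median of -1.34 on the log2 scale; of all tested genes, 32.6% were called, 14.7% negative and 17.9% positive. The largest called differences were GBP1 at -4.38 ± 1.05 (adjusted p = 0.00562), SAMD9L at -3.78 ± 1.29 (adjusted p = 0.0373), IFIT2 at -3.20 ± 0.51 (adjusted p = 3.15e-04) and TRIM22 at -3.06 ± 0.61 (adjusted p = 0.0016). The first 2 of these rest on 2 counts over the LNCaP siControl group; GBP1 was not called without the first siControl library of LNCaP-abl (adjusted p = 0.0595), and SAMD9L was not called with DESeq2 (adjusted p = 0.0516), with only the compared groups in the edgeR fit (adjusted p = 0.0569) or in 6 of the fits that left out 1 library. IFIT2 had 19.1 and 15.5 CPM under siCREB1 and 131 and 46.4 CPM under siFoxA1 in LNCaP-abl, against 20.5 and 16.0 CPM under siControl. IFIT2 in LNCaP stood at 29.5 and 25.2 CPM under siCREB1 and 314 and 296 CPM under siFoxA1, against 7.26 and 6.92 CPM under siControl. IFIT2 was thus lower under siFoxA1 and higher under siControl in LNCaP-abl than in LNCaP, and the siFoxA1 libraries of the lines did not overlap. For the membrane proteins 0 of 4 differences were called, with -0.73 ± 0.67 for BST2, -1.03 ± 0.46 for IFITM1, 0.54 ± 0.25 for IFITM2 and -0.29 ± 0.11 for IFITM3. All 4 IFIT genes, all 4 of the PARP and DTX3L group, and all 4 of the DDX60 and SAMD9 group were called negative. HERC5, which was not called under siFoxA1 in LNCaP-abl, differed by -3.01 ± 0.20 (adjusted p = 2.01e-07). MX1, DTX3L and APOL6 were called in opposite directions in the lines. The knockdown itself also differed: the log2 change of FOXA1 under siFoxA1 was less negative in LNCaP-abl by 0.49 ± 0.12 (adjusted p = 0.00584), and that of CREB1 under siCREB1 by 0.47 ± 0.13 (adjusted p = 0.0208). The part of the remaining FOXA1 or CREB1 in the line differences was not tested.

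For siCREB1 the difference was called negative for 23 members and positive for 2 (TRIM21 and SAMHD1), with a median of -0.91; of all tested genes, 25.5% were called, 10.8% negative and 14.8% positive. The largest called differences were IFI27 at -3.38 ± 0.86 (adjusted p = 0.0107), RSAD2 at -3.27 ± 0.86 (adjusted p = 0.0129), IFIT1 at -3.11 ± 0.52 (adjusted p = 6.90e-04) and OASL at -2.97 ± 0.87 (adjusted p = 0.0223). Without the first siControl library of LNCaP-abl the edgeR differences of IFI27 (adjusted p = 0.0985), RSAD2 (adjusted p = 0.13) and OASL (adjusted p = 0.229) were not called, and that of OASL was also lost without the second siCREB1 library of LNCaP-abl, the first siCREB1 library of LNCaP or the first siControl library of LNCaP. IFI27, RSAD2, IFIT1 and OASL were each not called under siCREB1 in LNCaP-abl and called higher in LNCaP. TRIM21 differed by 0.43 ± 0.12 (adjusted p = 0.0192) and SAMHD1 by 0.34 ± 0.09 (adjusted p = 0.0166). Called higher in both lines under siCREB1 were 11 members, namely IFI44, IFITM3, OAS1, HERC5, USP18, CMPK2, PARP9, TRIM21, GBP2, SP110 and SP100. IFI35 and ISG20 were called lower in LNCaP-abl and higher in LNCaP. Of all tested genes, 27.5% were called higher under siCREB1 in LNCaP-abl and 17.8% in LNCaP. The share called in both lines was not counted. The counts moved with single libraries: without the first siControl library of LNCaP-abl, 11 members were called negative for siCREB1 and 21 for siFoxA1, and without that of both lines, an alternative added after the data were seen, 10 and 20. Without the first siCREB1 library of LNCaP, 15 were called negative for siCREB1.

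**Figure D4:**
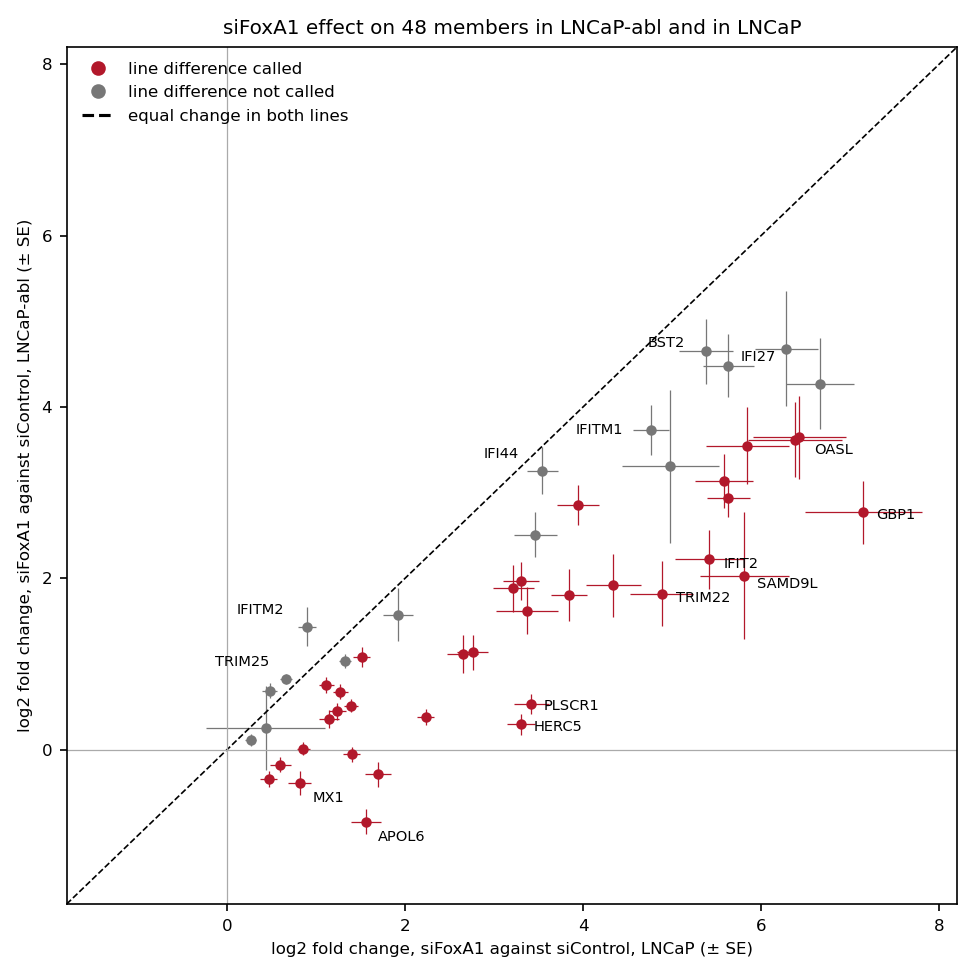
Log2 fold change under siFoxA1 against siControl in LNCaP-abl (vertical, ± SE) and in LNCaP (horizontal, ± SE) for 48 members, RTP4 being left out because it had 0 counts in LNCaP siControl; red points had a called line difference and the dashed line marks equal change. Most points lie below the line, GBP1 farthest, and IFITM2, TRIM21 and TRIM25 lie above it.

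Under siControl the share of members that differed between the lines was close to that of all genes, with calls in both directions. LNCaP-abl exceeded LNCaP in 19 members and was below it in 13, with a median of 0.43, beside 63.6% of all tested genes called, 30.5% above and 33.1% below. GBP1 was higher in LNCaP-abl, with 45 and 9 counts against 1 and 1 counts, a ratio of 26.0-fold (95% counting interval 6.86 to 220.1). Next came PLSCR1 at 3.92 ± 0.19 (adjusted p = 5.04e-10), PARP14 at 3.59 ± 0.11 (adjusted p = 2.84e-12), HERC5 at 2.74 ± 0.16 (adjusted p = 3.89e-09), GBP2 at 2.70 ± 0.37 (adjusted p = 1.84e-05) and APOL6 at 2.61 ± 0.17 (adjusted p = 9.00e-09). Below LNCaP were IFITM2 at -4.24 ± 0.17 (adjusted p = 5.67e-11), UBE2L6 at -2.68 ± 0.28 (adjusted p = 1.26e-06), IFI44 at -2.34 ± 0.30 (adjusted p = 1.08e-05), ISG15 at -1.81 ± 0.27 (adjusted p = 4.21e-05) and LGALS3BP at -1.49 ± 0.11 (adjusted p = 5.55e-08). None of the 4 membrane proteins was called higher in LNCaP-abl, and 3 were called lower.

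Compared with each other, siCREB1 left most members lower than siFoxA1 in both lines. In LNCaP, 45 members were called lower under siCREB1 than under siFoxA1 and 0 higher, with a median of -1.81, beside 43.0% of all tested genes called, 22.5% lower and 20.6% higher. The largest gaps there were GBP1 at -4.70 ± 0.45, MX2 at -4.33 ± 0.47, SAMD9L at -3.80 ± 0.36 and IFIT2 at -3.48 ± 0.32, and DTX3L, MX1, TRIM21 and EPSTI1 were not called. In LNCaP-abl, 33 members were called lower under siCREB1 and 2 higher (DTX3L and PARP9), with a median of -1.10, beside 41.0% of all tested genes called and 21.0% called lower. IFI44L in LNCaP-abl had 1 count over the siCREB1 group and 57 over the siFoxA1 group, lower by a ratio of 59.5-fold (95% counting interval 10.3 to 2391). IFI27 followed at -5.46 ± 0.40 (adjusted p = 1.94e-07) and BST2 at -4.92 ± 0.37 (adjusted p = 2.80e-07). DTX3L was higher under siCREB1 by 0.41 ± 0.09 (adjusted p = 0.00297) and PARP9 by 0.23 ± 0.07 (adjusted p = 0.0165); the count of 2 was 0 without the first siCREB1 or the second siFoxA1 library.

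The 2 siFoxA1 libraries of LNCaP-abl differed from each other in the members. Of 48 members with at least 20 counts in the pair, 43 were higher in the first library, with a median ratio of 1.42, and 9 differed more than 2-fold: IFIT1, IFIT2, IFIT3, MX2, OAS2, OASL, RSAD2, DDX60 and RTP4. The ratio was 3.15 for OASL, 3.13 for IFIT3, 2.98 for RSAD2 and 2.82 for IFIT2. In LNCaP, 0 of 48 members differed more than 2-fold between the siFoxA1 libraries, with a median ratio of 0.996, and 22 were higher in the first. The same shares over all genes were not counted. Over all genes with at least 20 counts in the pair, both siFoxA1 pairs differed beyond sampling noise. The chi-square per degree of freedom was 6.56 in LNCaP-abl and 5.04 in LNCaP. FOXA1 itself was at 196 and 229 CPM in the first and second siFoxA1 library of LNCaP-abl, and its part in this spread was not tested.

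Members with an ISRE core match in the promoter had a median log2 change of 3.31 under siFoxA1 in LNCaP (n = 29), and those without one 1.92 (n = 11); 28 of 29 and 11 of 11 were called higher. Under siFoxA1 in LNCaP-abl the medians were 1.14 and 0.83, under siCREB1 in LNCaP 1.15 and 0.66, and under siCREB1 in LNCaP-abl 0.12 and 0.18. These are descriptions with no test, and the 9 members for which no promoter was at hand are in neither set. OAS1 has no match in its window and rose by 5.63 ± 0.24 under siFoxA1 in LNCaP, beside 5.58 ± 0.33 for IFIT1, whose promoter is shown above.

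Other genes of the interferon pathway were taken from lists of the pathway's parts. Of 21 interferon genes in the tables, 15 had 0 counts in every library, among them IFNG and most IFNA genes. IFNB1, which encodes interferon beta, had 12 and 21 counts under siFoxA1 in LNCaP, against 0 in both siControl libraries, at least 9.55-fold higher against a floor of 3 counts over the siControl group. IL29, which encodes interferon lambda 1, had 80 and 83 counts under siFoxA1 in LNCaP, against 3 and 1 counts under siControl. IL29 rose by 5.07 ± 0.46 (adjusted p = 9.35e-07) there; in LNCaP-abl it had 7 and 3 counts under siFoxA1, against 1 and 0 under siControl, a ratio of 10.0-fold (95% counting interval 1.42 to 435). IL28B, interferon lambda 3, had 10 and 13 counts under siFoxA1 in LNCaP against 2 and 0, a ratio of 9.99-fold (95% counting interval 2.47 to 87.4). Under siCREB1 in LNCaP, IFNB1 had 0 counts in both libraries, and IL29 had 5 and 2 counts against 3 and 1 under siControl. IL28A and IL28B are close copies, so the split of their reads is uncertain.

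Among JAK-STAT and IRF factors, 7 of 10 tested rose and 1 fell under siFoxA1 in LNCaP, 6 rose and 1 fell under siCREB1 in LNCaP, 4 rose and 3 fell under siFoxA1 in LNCaP-abl, and 4 rose and 2 fell under siCREB1 in LNCaP-abl. The counts of this and the other pathway lists stand beside calls in either direction for 49.8% of all tested genes under siFoxA1 and 37.6% under siCREB1 in LNCaP, and for 56.5% and 51.2% under the same knockdowns in LNCaP-abl, so that several are near the share of all genes. IRF9 had 8.70 and 7.78 CPM under siCREB1 and 20.8 and 16.7 CPM under siFoxA1 in LNCaP-abl, against 8.75 and 6.69 CPM under siControl. IRF9 in LNCaP stood at 38.0 and 35.8 CPM under siCREB1 and 91.3 and 95.6 CPM under siFoxA1, against 12.6 and 12.4 CPM under siControl. IRF9, the DNA-binding subunit of ISGF3, was highest under siFoxA1 in both lines and rose by 2.90 ± 0.11 (adjusted p = 3.49e-10) under siFoxA1 and 1.56 ± 0.11 (adjusted p = 4.54e-07) under siCREB1 in LNCaP and by 1.2 ± 0.13 (adjusted p = 2.64e-06) under siFoxA1 in LNCaP-abl. JAK2, which serves type II interferon, fell in all 4 comparisons, with changes of -1.10 ± 0.11 and -0.32 ± 0.09 under siCREB1, and -0.75 ± 0.10 and -1.13 ± 0.10 with siFoxA1, in LNCaP-abl and LNCaP. IRF1 fell in LNCaP-abl (-0.50 ± 0.12 under siCREB1 and -1.03 ± 0.13 under siFoxA1) and rose in LNCaP (0.40 ± 0.14 and 0.64 ± 0.14 for the same knockdowns). The interferon receptors gave 3 rises and 1 fall among 6 under each knockdown in LNCaP-abl, 1 rise and 2 falls under siCREB1 in LNCaP, and 2 rises and 1 fall under siFoxA1 in LNCaP.

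Of 13 sensors of nucleic acid and their adaptors tested, 8 rose and 1 fell under siFoxA1 in LNCaP; 4 rose and 1 fell under siCREB1 in LNCaP, 6 rose and 3 fell under siFoxA1 in LNCaP-abl, and 2 rose and 1 fell under siCREB1 in LNCaP-abl. DDX58 had 14.4 and 15.5 CPM under siCREB1 and 37.2 and 26.1 CPM under siFoxA1 in LNCaP-abl, against 13.3 and 12.5 CPM under siControl. DDX58 in LNCaP stood at 31.7 and 29.6 CPM under siCREB1 and 103 and 107 CPM under siFoxA1, against 21.2 and 23.1 CPM under siControl. DDX58 (RIG-I) rose by 1.28 ± 0.14 (adjusted p = 3.03e-06) and 2.26 ± 0.12 (adjusted p = 8.81e-09) under siFoxA1 in LNCaP-abl and LNCaP, and by 0.48 ± 0.13 (adjusted p = 0.00952) under siCREB1 in LNCaP, and IFIH1 (MDA5) by 0.87 ± 0.13, 2.56 ± 0.14 and 0.80 ± 0.15 in the same comparisons. DHX58 rose by 1.70 ± 0.35 and 3.13 ± 0.29 under siFoxA1 in LNCaP-abl and LNCaP, and TLR3, a sensor of double-stranded RNA in endosomes, had changes of -0.45 ± 0.15 in LNCaP-abl and 1.57 ± 0.19 in LNCaP. For MHC class I presentation, 14 of 15 genes rose and 0 fell under siFoxA1 in LNCaP, 13 rose and 0 fell under siCREB1 in LNCaP, 6 rose and 2 fell under siFoxA1 in LNCaP-abl, and 4 rose and 1 fell under siCREB1 in LNCaP-abl. PSMB9, a subunit of the immunoproteasome, rose by 4.12 ± 0.39 and NLRC5, an activator of class I genes, by 2.54 ± 0.17 under siFoxA1 in LNCaP. HLA genes share near-identical sequence, so reads may be split among them. Of the feedback inhibitors, 1 of 5 rose and 1 fell under siFoxA1 in LNCaP, 1 rose and 2 fell under siCREB1 in LNCaP, 2 rose and 1 fell under siFoxA1 in LNCaP-abl, and 1 rose and 0 fell under siCREB1 in LNCaP-abl. SOCS1, which blocks JAK kinases, rose in LNCaP by 1.31 ± 0.32 under siCREB1 and 1.08 ± 0.33 under siFoxA1.

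Of 10 targets more typical of type II interferon, 6 rose and 1 fell under siFoxA1 in LNCaP, 3 rose and 0 fell under siCREB1 in LNCaP, 4 rose and 1 fell under siFoxA1 in LNCaP-abl, and 1 rose and 1 fell under siCREB1 in LNCaP-abl. CXCL10 had 0.0901 and 0.0405 CPM under siCREB1 and 2.25 and 0.9505 CPM under siFoxA1 in LNCaP-abl, against 0.0556 and 0.111 CPM under siControl. CXCL10 in LNCaP stood at 0.663 and 0.438 CPM under siCREB1 and 20.2 and 16.1 CPM under siFoxA1, against 0.289 and 0.0641 CPM under siControl. CXCL10, a chemokine for T cells, was highest in the siFoxA1 libraries of both lines; it rose by 6.42 ± 0.38 (adjusted p = 1.92e-08) in LNCaP, and in LNCaP-abl by a ratio of 23.7-fold (95% counting interval 7.79 to 118) on 71 counts against 3. CXCL11 rose by 7.30 ± 0.39 (adjusted p = 7.66e-09) under siFoxA1 in LNCaP, and CXCL9 had 17 and 26 counts under siFoxA1 against 0 under siControl, at least 12.4-fold higher. CD274 had 2.70 and 2.35 CPM under siCREB1 and 1.65 and 2.72 CPM under siFoxA1 in LNCaP-abl, against 1.56 and 0.892 CPM under siControl. CD274 in LNCaP stood at 15.4 and 18.7 CPM under siCREB1 and 2.87 and 2.64 CPM under siFoxA1, against 19.5 and 16.4 CPM under siControl. CD274, which encodes PD-L1, went against the other targets in LNCaP, with a change of -2.72 ± 0.19 (adjusted p = 8.89e-08) under siFoxA1. WARS fell in LNCaP-abl, with changes of -1.88 ± 0.06 under siCREB1 and -2.02 ± 0.06 under siFoxA1, and was not called in LNCaP (0.05 ± 0.06 and 0.03 ± 0.06 for the same knockdowns).

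**Figure D5:**
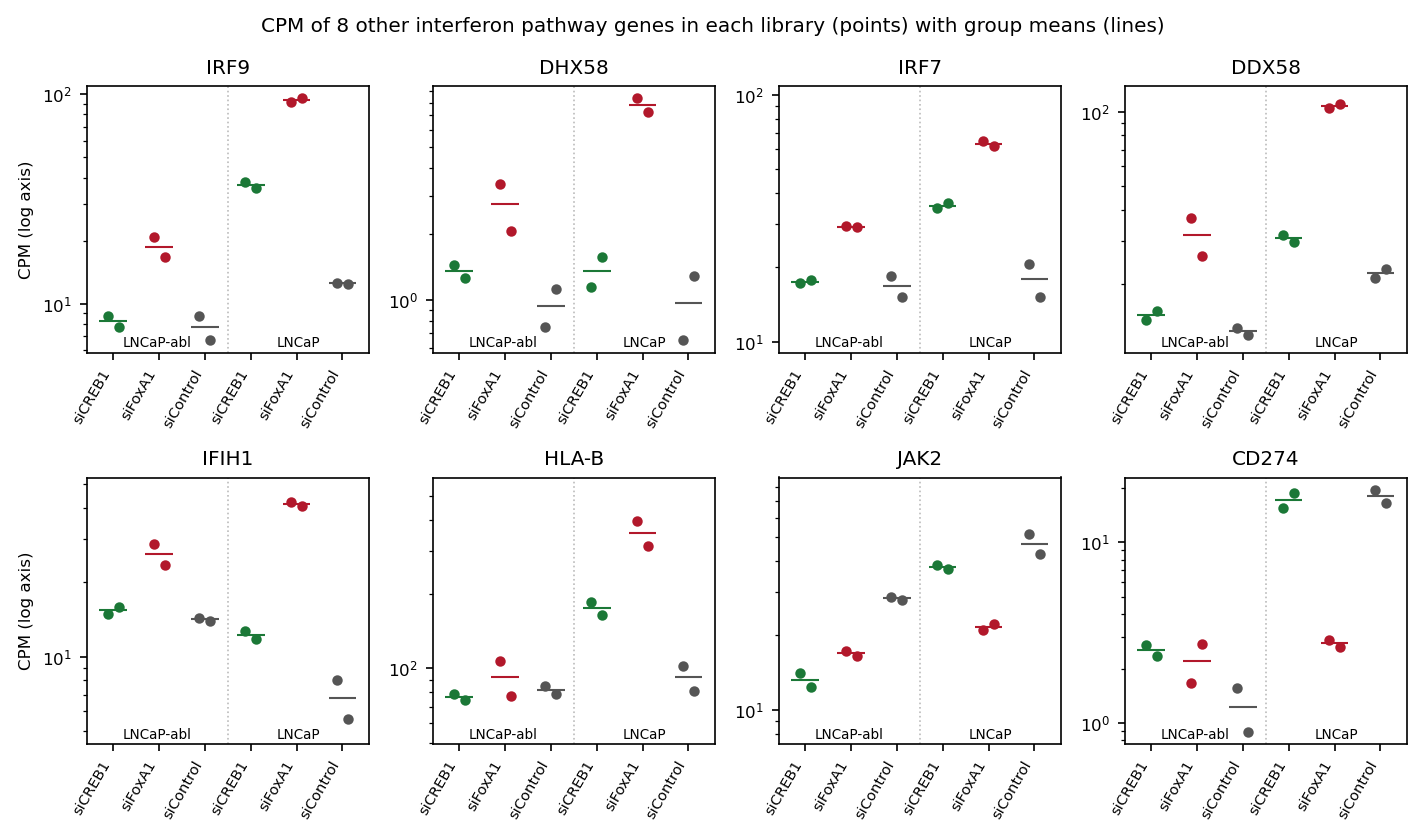
CPM (log axis) of 8 other genes of the interferon pathway in each library (points) with the group mean (lines), for siCREB1 (green), siFoxA1 (red) and siControl (grey) in LNCaP-abl (left of the dotted line) and LNCaP (right). IRF9, DHX58, IRF7, DDX58, IFIH1 and HLA-B are highest in the LNCaP siFoxA1 libraries, whereas JAK2 and CD274 are lower there than under siControl.

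The authors' deposited tables of their own edgeR comparisons list 48 members under siFoxA1 and 36 under siCREB1 in LNCaP, 40 under siFoxA1 in LNCaP-abl and 16 under siCREB1 in LNCaP-abl. Over all genes, the authors' deposited tables list 6778, 4593, 8708 and 7997 genes in the same 4 comparisons. Of the members listed in the authors' deposited tables, 48 are higher under siFoxA1 and 36 under siCREB1 in LNCaP, and 38 under siFoxA1 and 12 under siCREB1 in LNCaP-abl; 0 members have the opposite sign to the fit used here. MX1 and SAMD9L under siFoxA1 in LNCaP-abl, USP18 under siCREB1 in LNCaP and SAMHD1 under siCREB1 in LNCaP-abl were called here but are not listed in the authors' deposited tables, and ISG15 under siCREB1 in LNCaP-abl is listed there but was not called here.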

How the data were processed

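RNA of the 12 libraries (2 lines by 3 siRNAs, 2 each) was sequenced after a kit that does not mark strand. The deposited count tables hold whole reads per gene: per the submitters' processing notes the tools named are CASAVA 1.8, TopHat2 2.0.8, Bowtie2 2.1.0, HTSeq 0.5.3p9 and edgeR 3.0.6 with build hg19, with no roles given. The authors' deposited comparison tables give log2 fold changes and p-values, used only where named. Reads assigned to no gene were 54.8 to 58.3% and ambiguous reads 0.77 to 0.92% of all reads listed in each table, and were left out. Count columns repeated in several tables were identical and used once.

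Counts were fitted with edgeR 4.0.16 (R 4.3.3; TMM, filterByExpr, glmQLFit) over all 6 groups with 6 residual degrees of freedom, and p-values were adjusted by Benjamini-Hochberg over 15550 genes. The SE is the absolute log2 change divided by the root of F. Self-tests on simulated counts were run. Libraries held 9092597 to 37314039 reads in genes, and counting intervals and floors cover counting error only. Pairs of libraries of a group differed beyond sampling noise (chi-square per degree of freedom 4.35 to 10.2). Alternatives were RLE scaling, library size only, no filter, only the compared groups, the replicate block, leaving out each library, and DESeq2 1.42.0.

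The members and lists were chosen with earlier results of these data known. Named were, per comparison and role, the 2 called members with the largest change and those called against the majority; for line differences, the 4 largest called; and per pathway list the 2 largest called. Other genes were added to these after their values were seen, and 1 gene of the JAK-STAT and IRF list and 1 leukocyte marker are not reported here. RefSeq promoters are on GRCh38.p14 and the peak lists on hg19, so the ChIP peak lists are not used here, and the other 11 samples are not analysed here.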

Additional observations from a re-analysis of the deposited data

Results flagged for a closer look

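The effect of siFoxA1 on the members differed between LNCaP-abl and LNCaP by a test of the difference itself, the line-by-siRNA term of the edgeR fit. It was called for 32.6% of all tested genes, 14.7% with the lower log2 change in LNCaP-abl and 17.9% with the higher. Among the members it was called for 33 of 49, all with the smaller log2 change in LNCaP-abl. The largest differences, as LNCaP-abl minus LNCaP on the log2 scale, were -4.38 ± 1.05 for GBP1, -3.78 ± 1.29 for SAMD9L, -3.20 ± 0.51 for IFIT2 and -3.06 ± 0.61 for TRIM22. GBP1 and SAMD9L rest on 2 counts each over the LNCaP siControl group, and both lost their call without the first siControl library of LNCaP-abl. SAMD9L also lost it with DESeq2, with only the compared groups in the fit, and in most other fits that left out a single library. The count was 21 without the first siControl library of LNCaP-abl.

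The effect of siCREB1 differed by the same test for 25.5% of all tested genes. The log2 change was lower in LNCaP-abl for 10.8% and higher for 14.8%. Among the members it differed for 25 of 49, 23 of them with the lower log2 change in LNCaP-abl. The largest were -3.38 ± 0.86 for IFI27, -3.27 ± 0.86 for RSAD2, -3.11 ± 0.52 for IFIT1 and -2.97 ± 0.87 for OASL; without the first siControl library of LNCaP-abl, that of IFIT1 was still called and the other 3 were not. The count of 23 was 11 without the first siControl library of LNCaP-abl and 15 without the first siCREB1 library of LNCaP. The part of the knockdown depth, of the growth medium and of passage number in these differences was not tested.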

How the results depend on the processing

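Of 1816 values of named members under the alternatives, 1704 kept their direction and their side of the threshold, 112 kept their direction but were no longer called, and 0 reversed. Leaving out 1 library at a time gave 7 to 11 members higher and 2 to 3 lower under siCREB1 in LNCaP-abl, 34 to 40 higher and 1 to 4 lower under siFoxA1 in LNCaP-abl, 31 to 37 higher under siCREB1 in LNCaP, and 48 higher under siFoxA1 in LNCaP. It gave 0 to 2 positive and 11 to 20 negative line differences for siCREB1, and 21 to 36 negative ones for siFoxA1. For siCREB1 against siFoxA1 it gave 0 to 2 members higher and 29 to 36 lower in LNCaP-abl and 45 lower in LNCaP, and for LNCaP-abl against LNCaP under siControl 14 to 20 higher and 11 to 13 lower. The lowest counts came without the first siCREB1 library or the second siControl library of LNCaP-abl (7 higher under siCREB1), the first siControl library of LNCaP-abl (11 and 21 negative line differences) and the first siControl library of LNCaP (0 positive line differences for siCREB1). With 1 library left in a group, its spread was taken to be like that of the other groups.

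An alternative chosen after seeing the data left out the first siControl library of both lines, which held the neutrophil transcripts. It gave 9 members higher and 2 lower under siCREB1 and 34 higher and 1 lower under siFoxA1 in LNCaP-abl, 32 higher under siCREB1 and 48 under siFoxA1 in LNCaP, 0 positive and 10 negative line differences for siCREB1, and 20 negative ones for siFoxA1. DESeq2 gave 0 positive line differences for siCREB1. The cause of these shifts was not tested, though fewer libraries were fitted where some were left out. The share of all tested genes called was also lower in every fit that left out libraries. The labels do not say that library numbers mark a shared culture or day. The correlation of same-numbered deviations was 0.366 between the siControl groups of both lines. It was 0.244 between siCREB1 and siFoxA1 in LNCaP-abl, 0.21 between them in LNCaP, and -0.0948 to 0.071 between the other groups. The numbers were not taken as pairs because the labels do not give pairs. Whether some same-numbered libraries were handled together was not tested. With the replicate block the counts were 12 higher and 4 lower under siCREB1 and 40 higher and 3 lower under siFoxA1 in LNCaP-abl, and 38 and 48 higher for the same siRNAs in LNCaP. The alternatives on peak windows and peak thresholds were not run, because no annotation of the peaks' build was used. Low counts limit GBP1, SAMD9L, MX2, RTP4, IFI44L and EPSTI1.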
